A study of Homo sapiens with 3 samples.

Results

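The glucocorticoid receptor gene NR3C1 and 8 genes that are known to respond to the receptor were followed in single-cell RNA counts of a myeloma line and a stromal line, kept apart or together. The 9 genes were chosen by symbol (NR3C1, TSC22D3, FKBP5, PER1, KLF9, DUSP1, ZFP36L2, BTG1 and BTG2), and all 9 were among the 43913 genes of the count files. MM.1S is a human multiple myeloma line that is known for its sensitivity to glucocorticoids, and HS-5 is a human bone marrow stromal line immortalised with papillomavirus E6 and E7. The study made 3 Drop-seq libraries from untreated cells, 1 from MM.1S alone, 1 from HS-5 alone and 1 from both lines after 4 h together. No glucocorticoid was listed as a treatment of any library, and the medium of the coculture was not given in the sources used here. The study's general culture methods name RPMI for myeloma cells and DMEM for HS-5, both with foetal bovine serum. Line and medium therefore cannot be told apart between the monocultures.

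Glucocorticoids such as cortisol or dexamethasone bind the receptor in the cytoplasm, where it is held by HSP90 and its partner proteins. The bound receptor enters the nucleus, raises the transcription of genes such as TSC22D3 and FKBP5, and lowers that of many inflammatory genes. Dexamethasone is a mainstay of myeloma treatment, and several of the response genes studied here restrain growth or degrade mRNA in lymphoid cells.

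Of the cells with at least 200 detected genes, 3947 came from the MM.1S monoculture and 3732 from the HS-5 monoculture. The 3856 such cells of the coculture were separated with 62 genes that were MM.1S-specific and 164 that were HS-5-specific between the monocultures (at least 50-fold), with none of the 9 genes among them. This gave 1644 MM.1S cells and 2102 HS-5 cells, while 104 droplets held both kinds of RNA and 6 had too few specific unique molecular identifiers (UMIs, the counted molecules). The median depth was 2201 UMIs per cell in the MM.1S monoculture, 669.5 in the cocultured MM.1S cells, 971.5 in the HS-5 monoculture and 957 in the cocultured HS-5 cells. Between 39 and 76 cell barcodes were shared by each pair of libraries. The MM.1S monoculture stood apart in its composition, with 16.9% of UMIs on ribosomal protein genes against 7.75% to 11.6% in the other 3 groups of cells. It also differed by transcript length, since genes as long as NR3C1 had a median log2 ratio of 0.52 in cocultured over monocultured MM.1S cells and genes as short as DUSP1 a median of -0.04. The defining plasma cell marker JCHAIN was at 6664 counts per 1000000 UMIs (CPM) in the MM.1S and at 0.977 CPM in the HS-5 monoculture, and the stromal marker COL1A1 was at 1.63 and 498 CPM. Not all markers followed the labels, since the plasma cell marker SDC1 was at 38.1 CPM in MM.1S and 135 in HS-5, and the stromal marker FN1 at 810 CPM in MM.1S and 252 in HS-5. The 10 stromal markers summed to 2669.6 CPM in the MM.1S monoculture and 5232 in HS-5, with LGALS1 (1847 CPM) and FN1 making up nearly all of the MM.1S sum and each of the others at 3.07 CPM or less. In cocultured MM.1S cells FN1 was at 2228 CPM, LGALS1 at 1446 and the rest at 9.02 or less. Of the rest, COL1A1, COL1A2, NT5E, SPARC and CALD1 were HS-5-specific genes that took part in separating the lines. Their low level in these cells was partly set by that step. EPCAM, an epithelial marker, was detected in the MM.1S monoculture at 72.6 CPM.

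Levels below are CPM after adding up all cells of one line within a library, and each has an exact 95% Poisson interval. Each condition was 1 library, so no test between conditions was possible, and all intervals cover counting error only. Changes are log2 ratios of CPM + 1, and the intervals beside them are exact intervals of the ratio without that pseudocount. The background of each comparison was formed by genes that averaged 10 CPM or more over its 2 groups. Because 1 library was made of each culture, the culture and the library cannot be told apart.

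NR3C1, the receptor itself (chromosome 5, 143277931 to 143435512, minus strand, GRCh38), ranged over the 4 groups from 65.8 to 87.7 CPM. It was at 65.8 CPM (60.9 to 70.9) in the MM.1S monoculture, 77.4 (63.2 to 93.9) in cocultured MM.1S, 72.1 (65.6 to 79.2) in the HS-5 monoculture and 87.7 (76.4 to 100.1) in cocultured HS-5. The 2 monocultures and the cocultured MM.1S cells had overlapping intervals, and only cocultured HS-5 against the MM.1S monoculture was clear of overlap. In MM.1S the coculture ratio was 0.23 (-0.08 to 0.54), and in HS-5 it was 0.28 (0.04 to 0.52). After the median of genes of like transcript length was taken off, the MM.1S ratio turned to -0.29 and the HS-5 ratio was 0.43. One MM.1S monoculture cell carried 31 of the 686 NR3C1 UMIs of its library, and without it the level was 62.8 CPM. After each cell was thinned to 1000 UMIs, 6.33% of MM.1S monoculture cells and 6.77% of HS-5 monoculture cells had an NR3C1 UMI, against 5.28% and 8.81% in the coculture.

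TSC22D3 encodes GILZ, a leucine zipper protein that carries part of the anti-inflammatory action of glucocorticoids, and it had the lowest coculture ratio of the 9 genes in MM.1S (chromosome X, 107713221 to 107777342, minus strand). Its level was 157 CPM (149 to 165) in the MM.1S monoculture and 30.8 (22.1 to 41.8) in cocultured MM.1S cells, from 1638 and 41 UMIs. The ratio was -2.31 (-2.83 to -1.902), 4.96-fold lower in coculture, and 0.332% of the background genes had a lower ratio. In HS-5 the gene was low in both cultures, at 16.9 CPM (13.8 to 20.5) alone and 17.4 (12.6 to 23.4) in coculture, a ratio of 0.03 (-0.51 to 0.56). Cocultured MM.1S cells lay nearer to the HS-5 level than to that of MM.1S cells kept alone. Genes with transcripts as long as that of TSC22D3 had a median ratio of 0.08 in MM.1S.

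BTG2, an antiproliferative protein that recruits the mRNA deadenylation machinery, was lower as well in cocultured MM.1S cells (chromosome 1, 203305491 to 203309602, plus strand). It was at 201 CPM (192 to 209) in the MM.1S monoculture and at 60.9 (48.4 to 75.7) in coculture, a ratio of -1.70 (-2.06 to -1.40) and 3.26-fold lower. HS-5 cells almost lacked it, with 2 UMIs in the monoculture and 3 in coculture, so that their ratio of 0.74 had a counting interval from -1.23 to 5.48. The HS-5 monoculture level was 0.00162 of the MM.1S one (counting interval 0.000196 to 0.00587).

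DUSP1, a phosphatase that switches off MAP kinases, was lower in coculture in both lines (chromosome 5, 172768090 to 172771195, minus strand). It was at 42.7 CPM (38.8 to 46.8) in the MM.1S monoculture and 23.3 (15.8 to 33.1) in coculture, a ratio of -0.84 (-1.45 to -0.35). In HS-5 it was at 77.2 CPM (70.4 to 84.4) alone and 58.2 (49.1 to 68.5) in coculture, a ratio of -0.40 (-0.69 to -0.14). The intervals of the ratios of the lines overlapped. An antisense gene spans DUSP1, and NCBP2L, with 14 UMIs in the MM.1S monoculture, overlaps TSC22D3 on the opposite strand. Whether the counting used strand was not given in the sources used here, so reads of such pairs cannot be told apart.

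TSC22D3, BTG2 and DUSP1 were the 3 genes whose interval lay below 0 in cocultured MM.1S, where 19.3% of 7833 background genes had such an interval. Another 3 of the 9 had an interval above 0, where 40.4% of background genes did. The 250 bases before one RefSeq start of TSC22D3, BTG2 and DUSP1 (GRCh38.p14, 5′ to 3′ on the strand of the gene) are shown because all 3 were lower. The TSC22D3 window is chrX:107717063-107717312, before 1 of its 4 listed starts, the BTG2 window is chr1:203305269-203305518 and the DUSP1 window is chr5:172771196-172771445. The capitals mark a cAMP response element and an E-box.
TSC22D3: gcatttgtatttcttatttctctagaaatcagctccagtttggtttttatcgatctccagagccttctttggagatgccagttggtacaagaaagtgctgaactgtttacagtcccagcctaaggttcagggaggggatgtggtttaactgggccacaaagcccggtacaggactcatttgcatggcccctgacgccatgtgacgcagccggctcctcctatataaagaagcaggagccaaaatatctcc
BTG2: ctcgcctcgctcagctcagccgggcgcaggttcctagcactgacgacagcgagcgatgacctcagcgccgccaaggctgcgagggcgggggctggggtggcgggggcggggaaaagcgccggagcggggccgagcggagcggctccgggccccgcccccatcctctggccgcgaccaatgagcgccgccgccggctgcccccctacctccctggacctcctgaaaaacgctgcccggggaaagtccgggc
DUSP1: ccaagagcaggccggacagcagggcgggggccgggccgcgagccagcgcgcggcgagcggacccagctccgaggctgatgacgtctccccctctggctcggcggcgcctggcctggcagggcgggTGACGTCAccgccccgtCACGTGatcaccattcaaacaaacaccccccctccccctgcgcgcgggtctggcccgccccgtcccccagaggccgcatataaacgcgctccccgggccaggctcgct
Sequences for 8 of the 9 genes were matched by symbol in RefSeq, all but ZFP36L2, and 4 motifs were searched on both strands from 250 bases before to 50 bases after each start. The cAMP response element TGACGTCA was found in the DUSP1 window, 125 to 118 bases before the start, and in 1.85% of all 35116 windows. The E-box CACGTG was present for DUSP1, FKBP5 and PER1, and for 8.77% of all 27305 genes (7.26% of windows). A single arm of the receptor's element, AGAACA, was present in a window of FKBP5, and for 17.5% of all genes (14.8% of windows). The full palindrome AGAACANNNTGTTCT, which contains that arm on both strands, was not in the windows of these genes and was in 0.00285% of all windows.

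FKBP5, an HSP90 co-chaperone that lowers the receptor's affinity for its ligand, had intervals that held 0 in both coculture comparisons. It was at 66.3 CPM (61.5 to 71.5) in the MM.1S monoculture and 57.1 (45.0 to 71.5) in cocultured MM.1S, a ratio of -0.21 (-0.58 to 0.13). The HS-5 levels were 32.6 CPM (28.2 to 37.4) alone and 25.5 (19.6 to 32.6) in coculture, a ratio of -0.34 (-0.79 to 0.06). Its ratio was -0.74 in MM.1S with the length trend taken off, and -0.998 in HS-5 after thinning to 500 UMIs, both beyond those intervals. In both cultures its MM.1S level lay above its HS-5 level, with intervals that did not overlap.

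PER1, a circadian clock repressor, was low everywhere, between 5.25 and 6.01 CPM in the 4 groups, and its intervals overlapped throughout. The protein-coding gene AC129492.3 overlaps PER1 on the same strand over 5691 bases and was not listed in the counts. How this affected the PER1 level was not tested. KLF9, a zinc finger transcription factor, was low in MM.1S, at 3.74 CPM (2.66 to 5.11) alone and 9.02 (4.66 to 15.8) in coculture, from 39 and 12 UMIs. In HS-5 it was at 13.2 CPM (10.5 to 16.4) alone and 20.2 (14.99 to 26.6) in coculture. Its ratios were 1.08 (0.20 to 2.23) in MM.1S and 0.58 (0.08 to 1.14) in HS-5, yet over cells with 400 to 1500 UMIs they were -0.12 and -0.16. Its direction in coculture therefore was not stable at this depth.

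ZFP36L2, an RNA-binding protein that speeds the decay of mRNAs with AU-rich elements, was higher in cocultured than in monocultured MM.1S cells. It was at 253 CPM (244 to 263) in the MM.1S monoculture and 393 (360 to 428) in coculture, a ratio of 0.63 (0.50 to 0.77). In HS-5 it was at 80.9 CPM (74.0 to 88.4) and 79.6 (68.9 to 91.5), a ratio of -0.02 (-0.27 to 0.22). The intervals of the lines did not overlap, and the median over genes of like transcript length was 0.35 in MM.1S.

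BTG1, the close relative of BTG2, had the opposite distribution with higher levels in HS-5. It was at 313 CPM (299 to 327) in the HS-5 monoculture and 416 (391 to 442) in coculture, against 23.0 (20.2 to 26.1) and 55.6 (43.7 to 69.8) in MM.1S. The ratios were 0.41 (0.30 to 0.52) in HS-5 and 1.24 (0.88 to 1.66) in MM.1S. RNA of the other line was estimated at 1.59% of the UMIs of cocultured MM.1S cells, and after its subtraction BTG1 stood at 49.8 CPM in them. Genes of like length had a median of 0.43 in MM.1S, and after that was taken off, the ratio was 0.81. LINC01619, which overlaps BTG1 on the same strand, had 6 UMIs in the MM.1S and 13 in the HS-5 monoculture.

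Counted over the 9 genes, 2 were at least 2-fold higher in cocultured MM.1S cells (KLF9 and BTG1) and 2 at least 2-fold lower (TSC22D3 and BTG2). Of the 9, 7 averaged 10 CPM or more in this comparison, while KLF9 and PER1 did not. Among all background genes of this comparison 19.0% were at least 2-fold higher and 5.78% at least 2-fold lower. The median over the 9 genes was 0.01, against 0.24 over the 7833 background genes. Over the 7 genes that reached 10 CPM, 1 was at least 2-fold higher and 2 lower, with a median of -0.21. In HS-5, 0 of the 9 genes passed 2-fold in either direction, where 1.21% of background genes were that much higher and 1.83% that much lower, and the median was 0.03 against -0.04. PER1 and BTG2 averaged less than 10 CPM in HS-5, and the count and median include BTG2 with its 2 and 3 UMIs.

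Between the monocultures, 6 of the 9 genes differed by at least 2-fold. In HS-5 relative to MM.1S, BTG1 (3.71, interval 3.57 to 3.97) and KLF9 (1.58, 1.25 to 2.41) were at least 2-fold higher, where 38.1% of background genes were. TSC22D3 (-3.14, -3.51 to -2.93), ZFP36L2 (-1.63, -1.79 to -1.51), FKBP5 (-1.004, -1.26 to -0.80) and BTG2 were at least 2-fold lower, where 15.3% of background genes were. DUSP1 was higher in HS-5 by 0.84 (0.67 to 1.05). NR3C1 (0.13, -0.04 to 0.31) and PER1 (-0.12, -0.80 to 0.49) differed by less than counting error, but with the trend in transcript length taken off they were at -0.99 and -0.97. FKBP5 was then at -2.13, and over cells with 400 to 1500 UMIs it was at -0.56, no longer 2-fold lower. Of the 8 response genes, 7 had an interval clear of 0 between the lines, 3 upward and 4 downward in HS-5, in a background where 88.2% of genes had one. The median over the 9 genes was -0.12, against 0.56 over the 8734 background genes. KLF9 and PER1 averaged less than 10 CPM in this comparison, below the floor of the background. Over the 7 genes that reached it, 1 was at least 2-fold higher and 4 lower, with a median of -1.004.

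**Figure D1:**
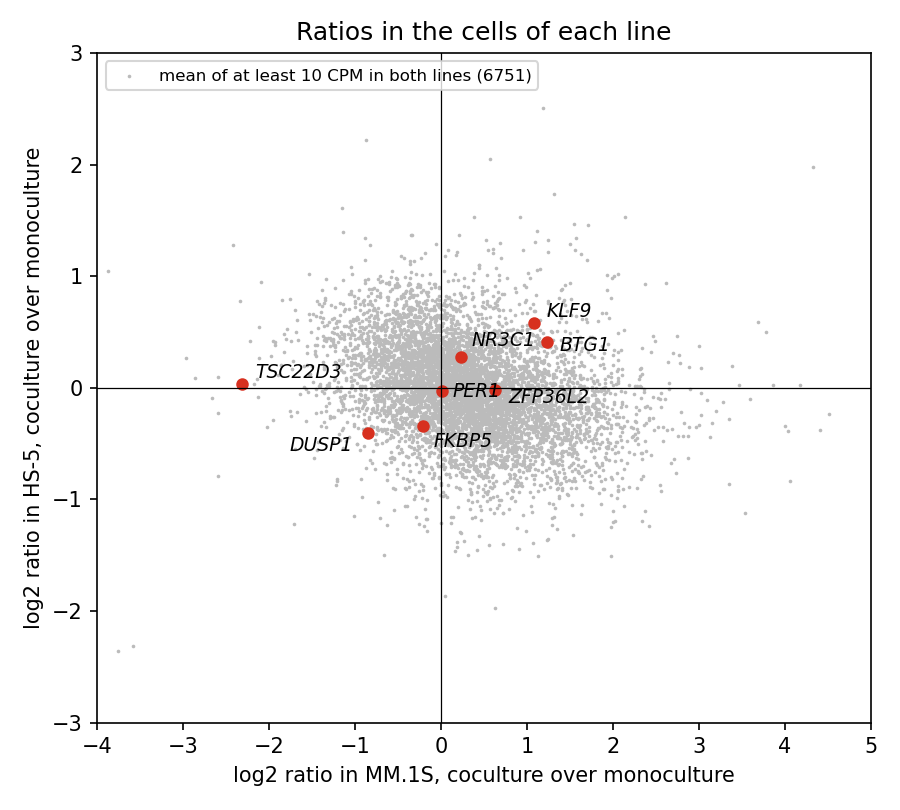
Each grey point is 1 of 6751 genes that averaged 10 CPM or more in both comparisons, by its log2 ratio in MM.1S (x) and HS-5 (y), 5 of them outside the axes. Red points are 8 of the 9 genes, whatever their level. TSC22D3 lies at -2.31 and 0.03, at the left edge of the cloud.

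Fewer cocultured MM.1S cells had a UMI of TSC22D3 or BTG2 at equal depth. Thinning each cell to 1000 UMIs left 3870 of 3947 MM.1S monoculture cells, 379 of 1644 cocultured MM.1S cells, 1802 of 3732 HS-5 monoculture cells and 999 of 2102 cocultured HS-5 cells. Among these, 12.6% (exact binomial interval 11.6% to 13.7%) of 3870 MM.1S monoculture cells had a TSC22D3 UMI, against 2.11% (0.916% to 4.12%) of 379 cocultured MM.1S cells. In HS-5, which has little of this transcript, the shares were 1.66% and 1.201%. Without thinning, 22.2% of MM.1S monoculture and 2.01% of cocultured MM.1S cells had a TSC22D3 UMI. The share with exactly 1 UMI was 9.35% alone and 1.85% in coculture, and the share with 2 or more was 3.28% and 0.264%. BTG2 was found in 18.6% (17.4% to 19.9%) of thinned MM.1S cells kept alone and 3.96% (2.23% to 6.44%) of those in coculture. In HS-5, which almost lacks BTG2, 0.0555% and 0.2002% of cells had a UMI of it. ZFP36L2 went from 22.2% to 27.4% in MM.1S, with overlapping intervals up to 23.6% and from 23.0%. BTG1 went from 24.6% to 29.03% in HS-5.

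TSC22D3 was unevenly spread over MM.1S monoculture cells. Its variance over cells was 1.89 times its mean, against 1.15 for BTG2, 1.13 for ZFP36L2 and 1.12 for NR3C1. The 127 cells with at least 2 TSC22D3 UMIs were compared, as a description, with the 3381 without any, over genes of at least 100 CPM. These cells were picked on TSC22D3 itself, and the genes named here were chosen after their values were seen. KLF6, an early response transcription factor, was at 1173 CPM (992 to 1378) in them and 199 (184 to 215) in the others. ANXA1, a mediator of glucocorticoid action that blocks inflammation, was at 669 CPM (535 to 828) and 126 (115 to 139). NFKBIA, the inhibitor of NF-κB, was at 299 CPM (212 to 411) and 80.7 (71.4 to 90.9), and FOS at 189 (121 to 281) and 28.99 (23.5 to 35.3). Both were below 100 CPM in the cells with none, so they entered the comparison only through the cells where they are high. Cells with 1 TSC22D3 UMI had intermediate values for KLF6 (412 CPM), ANXA1 (334 CPM) and NFKBIA (130 CPM). FOS was at 41.4 CPM (23.2 to 68.3) in them, which overlapped its interval in the cells with none. Median depth before thinning was 1847 UMIs in the cells with at least 2 TSC22D3 UMIs and 2262 in those with none, and its part in these differences was not tested. Among the 9 genes, NR3C1 was higher in the cells with at least 2 TSC22D3 UMIs, at 134 CPM (78.0 to 214) against 66.0 (57.6 to 75.2) in those with none. DUSP1 was at 126 CPM (72.0 to 205) and 43.8 (37.0 to 51.4). These rest on 17 and 16 UMIs in the cells with at least 2. FKBP5 did not follow, at 47.2 CPM (17.3 to 103) and 61.8 (53.7 to 70.8), and PER1, KLF9, ZFP36L2, BTG1 and BTG2 also had overlapping intervals. In cocultured MM.1S as a whole, KLF6 was at 422 CPM against 230 in the monoculture, and ANXA1 at 118 against 154.

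**Figure D2:**
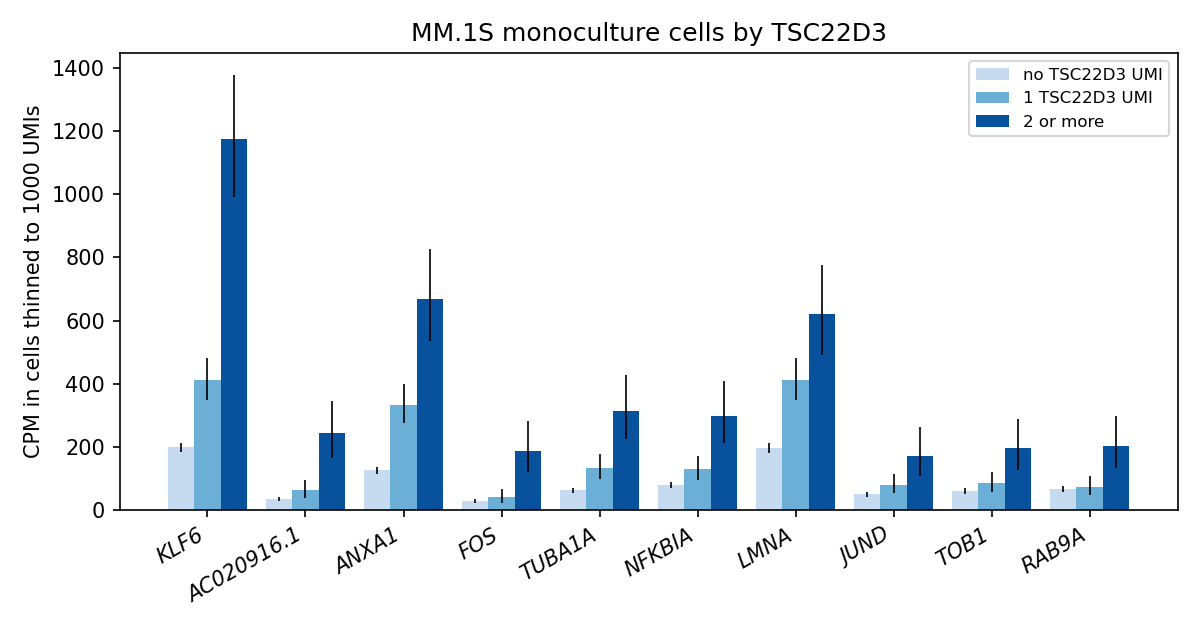
CPM, with exact 95% Poisson intervals, of the 10 genes that were highest in MM.1S monoculture cells with at least 2 TSC22D3 UMIs relative to those with none. KLF6 is at 199, 412 and 1173 CPM with 0, 1 and at least 2 TSC22D3 UMIs. AC020916.1, FOS, TUBA1A, NFKBIA, JUND, TOB1 and RAB9A were below 100 CPM in the cells with none. Those genes entered the comparison only through the cells where they are high.

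BTG2 in MM.1S was lower in cells with more G2/M transcripts. In monoculture cells with no UMI of 15 G2/M genes it was at 271 CPM (250 to 293), in cells with 1 or 2 at 147 (124 to 172), and in those with 3 or more at 135 (106 to 171). TSC22D3 differed less, at 191 (174 to 210), 176 (151 to 204) and 162 (129 to 200). The 107 cells with at least 2 BTG2 UMIs had 355 CPM (251 to 487) of HIST1H4C, a histone gene of S phase, against 1438 (1396 to 1480) in cells with none. PCLAF, a replication factor, was at 74.8 (32.3 to 147) against 257 (240 to 275). Another histone gene, HIST1H2AC, went the other way, at 299 CPM (205 to 422) against 83.5 (73.7 to 94.2). This comparison also ran over genes of at least 100 CPM. PCLAF and HIST1H2AC were below that in the cells where they were lower, so they entered only through the cells where they are high.

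Other genes of the receptor system had ratios mostly above 0 in cocultured MM.1S and near or below 0 in HS-5. Of 14 measured chaperones of the receptor, 5 were at least 2-fold higher in cocultured MM.1S and 0 lower, with a median of 0.94. In HS-5 0 of 15 passed 2-fold with a median of -0.02, where 1.21% of background genes were higher and 1.83% lower. HSP90AA1, the inducible HSP90, was at 540 CPM in the MM.1S monoculture and 3456 in coculture (2.68, 2.62 to 2.73), while in HS-5 it was at 6266 and 3923 (-0.68, -0.71 to -0.64). HSPA1B, an HSP70, had a ratio of 2.05 (1.79 to 2.41) in MM.1S. FKBP4, the co-chaperone that opposes FKBP5, had 0.34 (-0.16 to 0.83). Of 15 measured receptor coregulators, 8 were at least 2-fold higher in MM.1S (median 1.01), led by TRIM28 at 3.19 (2.97 to 3.57) and NCOA1 at 1.64 (1.07 to 2.51). In HS-5, 0 of 15 passed 2-fold and the median was -0.58, with CTBP1 at -0.80 (-1.07 to -0.55). In the background of the MM.1S comparison 19.0% of genes were at least 2-fold higher and 5.78% lower. The background medians were 0.24 in MM.1S and -0.04 in HS-5. Few background genes passed 2-fold in HS-5, so the counts of 0 there are near the background share. Transcript length moves with these ratios, and its part in them was not tested.

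Other genes that glucocorticoids are known to induce lay on both sides of 0 in cocultured MM.1S. Of 20 measured in MM.1S, 6 were at least 2-fold higher in coculture and 2 lower, beside 19.0% and 5.78% of background genes, and the median of 0.30 was near the background's 0.24. MT2A, a metallothionein, was highest at 3.38 (3.10 to 4.43), from 3.07 to 41.4 CPM, beside 4515 CPM in the HS-5 monoculture and an estimated 1.59% of HS-5 RNA in these cells. MT2A and SGK1, both counted among the 6, were HS-5-specific genes that took part in separating the lines. CEBPB, a transcription factor, had a ratio of 2.05 (1.67 to 2.64). PIK3IP1, an inhibitor of PI3 kinase, was at -1.68 (-2.96 to -0.87), and GLUL, glutamine synthetase, at -1.56 (-2.26 to -1.02). In HS-5 0 of 19 passed 2-fold (background 1.21% higher and 1.83% lower), from MT1X at 0.73 to ANGPTL4 at -0.78.

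Of the inflammatory genes that glucocorticoids repress, 17 were measured in HS-5 cultures, and 1 was at least 2-fold higher and 2 at least 2-fold lower in coculture, beside 1.21% and 1.83% of background genes. CCL2, a monocyte chemokine, went from 21.8 to 88.9 CPM (1.98, 1.71 to 2.35). CSF2, the growth factor GM-CSF, went from 192 to 26.3 CPM (-2.83, -3.26 to -2.51), and IL11 from 51.0 to 24.6 CPM (-1.02, -1.47 to -0.65). IL6 differed by less than counting error, at 1209.5 CPM alone and 1207 in coculture. In MM.1S 6 of these genes were measured, 4 of them at least 2-fold higher in coculture (background 19.0%) and 0 lower, and CCL5 was at -0.55 (-0.93 to -0.21). Of the 4, only CCL2 took no part in separating the lines. CXCL8, MMP1 and MMP3 were HS-5-specific genes of that step, as were IL6 and CSF2, and CCL5 was MM.1S-specific. CXCL8 was at 26.3 CPM and MMP3 at 24.1 in cocultured MM.1S, beside 1243 and 2775 in cocultured HS-5. HS-5 RNA was estimated at 1.59% of UMIs in cocultured MM.1S, and its part in these ratios was not tested. In cocultured MM.1S cells, CCL2 was at 104 CPM against 4.22 alone, with an interval (87.2 to 123) that overlapped that of cocultured HS-5 cells (77.5 to 101). MMP1 was at 79.7 CPM there, against 1 UMI in all MM.1S cells kept alone and 9827 CPM in cocultured HS-5.

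The immediate early genes, which like DUSP1 answer within minutes to signals, had a median ratio of 0.92 in cocultured MM.1S. Of 17 measured, 8 were at least 2-fold higher and 2 lower, beside 19.0% and 5.78% of background genes, led by DUSP5 (4.06, 3.84 to 4.72), another MAP kinase phosphatase, and TRIB1 (2.39, 1.96 to 3.31). The 2 lower ones were PPP1R15A at -1.36 (-2.85 to -0.44) and MYC at -1.06 (-1.195 to -0.93). In HS-5 2 of 20 were at least 2-fold lower (background 1.83%), FOS at -3.04 (-4.62 to -2.38) and SRF at -1.19 (-1.78 to -0.74). Among enzymes of the ligand, HSD11B2, which inactivates cortisol, was at 14.2 CPM (12.0 to 16.7) in MM.1S alone and 0.814 (0.264 to 1.8997) in HS-5 alone. HSD11B1, which activates cortisone, was at 2.01 CPM in MM.1S and 5.54 in HS-5. Of 4 measured genes of ligand metabolism and other steroid receptors in each line, 0 passed 2-fold. The background shares were 19.0% higher and 5.78% lower in MM.1S and 1.21% and 1.83% in HS-5, so a count over 4 genes says little. Of 15 measured paralogues of the 9 genes, 6 were at least 2-fold higher in cocultured MM.1S (background 19.0%) and 0 lower, DUSP5 first and KLF13 next (1.61, 1.24 to 2.08). In HS-5 0 of 16 passed 2-fold (background 1.21% higher and 1.83% lower). Among 10 genes commonly used as references, GAPDH (-1.54, -2.30 to -0.97) and SDHA (-1.11, -1.44 to -0.82) were at least 2-fold lower in cocultured MM.1S (background 5.78%). In HS-5 0 of them passed 2-fold, beside the same HS-5 background.

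By Euclidean distance of centred log2 levels over the 4 groups, the genes most like NR3C1 were DRG1, PSMD4 and PET117 among 6506 genes. For TSC22D3 they were FDPS, RPL30 and TMEM243, and for FKBP5 they were RPLP2, TM7SF3 and CDIP1. FDPS, an enzyme of the mevalonate pathway, went from 73.7 to 13.5 CPM in MM.1S and from 8.79 to 6.87 CPM in HS-5.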

How the data were processed

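The deposited files held UMI counts per gene and cell, made by the authors from Drop-seq reads of 3 libraries, with STAR 2.5.3a, featureCounts 1.6.4 and UMI-tools 1.0.0 named in the submitters' processing notes together with GRCh38. The order of these steps was not given in the sources used here. Totals were 10433182, 6143448 and 3981392 UMIs for MM.1S, HS-5 and the coculture. A cell needed 200 detected genes to enter, and cocultured cells were assigned to a line by 62 and 164 line-specific genes (at least 50 CPM and 50-fold), below 0.2 or above 0.8 of HS-5-specific UMIs. Droplets between were left out, and no doublet caller was run. Summed counts were scaled to CPM, with a pseudocount of 1 and a floor of 10 CPM. Poisson, binomial and conditional binomial intervals were exact (scipy 1.17.1, Python 3.11.15). The script was checked on simulated data. The members and lists were chosen with earlier results of these data known. Named genes were all 9 members and, from each list, the top 2 and bottom 2 by ratio in a comparison, given a mean of 10 CPM. Not all of these are printed. IL6, HSD11B1 and the genes of the TSC22D3 and BTG2 cell comparison were chosen after their values were seen. Gene positions follow GENCODE 29, whose symbols covered 97.3% of those in the files. Alternatives covered filters, scaling, pseudocounts, thinning, line assignment and free RNA.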

Additional observations from a re-analysis of the deposited data

Results flagged for a closer look

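The log2 ratio of TSC22D3 was below 0 in cocultured MM.1S (-2.31) and just above 0 in HS-5 (0.03), so that the lines had opposite signs and differed by -2.35 (MM.1S minus HS-5). ZFP36L2 had a ratio above 0 in MM.1S (0.63) and just below 0 in HS-5 (-0.02), a difference of 0.66. With 1 library per condition neither difference was tested, and both HS-5 ratios lay within counting error.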

How the results depend on the processing

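TSC22D3 and BTG2 were at least 2-fold lower in cocultured MM.1S under each of 14 alternatives, from -2.97 to -2.18 and from -2.21 to -1.56, and ZFP36L2 stayed above 0 (0.28 to 0.67). The number of genes past 2-fold in MM.1S was 4, and 2 once the trend with transcript length was taken off, a correction added after seeing the data. In HS-5 the number was 0, and 1 at a 1.5-fold threshold, with a pseudocount of 0.1 CPM, or after thinning to 500 UMIs. That gene was BTG2 each time, which had 2 UMIs in the HS-5 monoculture and 3 in coculture. At 1.5-fold it was 6 in MM.1S and 7 between the monocultures, where 47.4% and 71.3% of background genes passed, against 17.9% in HS-5. The median between the monocultures was -0.99 with the length trend removed. KLF9 turned over cells with 400 to 1500 UMIs, to -0.12 in MM.1S and -0.16 in HS-5, and to -0.42 in HS-5 after thinning to 500 UMIs. The cause was not tested. Scaling by the median ratio shifted all genes by 0.11 in MM.1S and 0.17 between the monocultures. Without the cell richest in NR3C1 the MM.1S ratio of that gene was 0.30. Of 353 ratios of single genes under alternatives, 27 changed sign, 3 of them (KLF9) where the reported interval excluded 0 and 24 where it held 0, among them NR3C1. KLF9 passed 2-fold in MM.1S in 6 of 14 alternatives, and FKBP5 between the monocultures in 7 of 11. No paired analysis was possible because each culture has 1 library. Precision is limited by 1330119 UMIs in cocultured MM.1S cells, where 3 counts are 2.26 CPM.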
